A study of Mus musculus with 12 samples.

Results

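The Wnt genes described here are 44 of the 53090 gene rows in the retinal ribosome libraries of the series: 9 ligands, 7 frizzled receptors, 7 secreted antagonists, 7 genes of the R-spondin module, 7 of the Dishevelled proteins and the beta-catenin destruction complex, 3 feedback inhibitors and 4 TCF and LEF factors. They were chosen by symbol, as the Wnt pathway without the norrin receptor complex, and all 44 were in the tables. RNA was purified after immunoprecipitation of ribosomes through an HA tag from retinas of C57BL/6 mice that had received tamoxifen on postnatal days 1 and 2. The groups were postnatal day 3 (P3, 6 libraries) and postnatal day 9 (P9, 6 libraries). The labels give retinal pericytes, the mural cells of capillaries, as the cell type of both. No source used here names the Cre driver, and tamoxifen preceded harvest by a longer time at P9, which cannot be told apart from age. Whether a library is a single animal is not stated, so every p-value here reflects how much these libraries vary, and part of that variation may be technical. The comparison the design holds is P9 against P3.

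Wnt proteins are secreted lipid-modified ligands that bind frizzled receptors on the cell surface. In the branch that runs through beta-catenin, Dishevelled proteins recruited by the receptors disable a destruction complex built on Apc and Axin, so that beta-catenin accumulates and activates genes together with TCF and LEF factors. Secreted antagonists capture the ligands or block the co-receptors, and R-spondins bound to Lgr receptors remove the ubiquitin ligases Znrf3 and Rnf43, which otherwise clear frizzleds from the surface. Several inhibitors, such as Axin2, Nkd1, Znrf3 and Apcdd1, are themselves targets of the pathway and act as feedback. In the eye Wnt signals are known for roles at the retinal margin, in the lens and in vessel growth.

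Library totals ran from about 26840000 to 37776000 expected counts. Levels are in CPM, the depth-scaled count, computed with TMM factors, and 1 CPM rests on 25.8 to 38.5 counts. All 15 pericyte markers were detected and 13 of them rose at P9, with a summed level of a median of 711 CPM (lowest 423, highest 1426) at P3 and a median of 4478 CPM (lowest 2912, highest 6509) at P9. Markers of other eye cells were also present. The 15 lens genes summed to a median of 10203 CPM (lowest 5537, highest 16662) at P3 and a median of 124 CPM (lowest 84.4, highest 2407) at P9, the rod list to a median of 1855 CPM (lowest 1339, highest 2978) and a median of 12682 CPM (lowest 7975, highest 16418), and the retinal progenitor list to a median of 2660.3 CPM (lowest 2388, highest 3278) and a median of 1389 CPM (lowest 1338, highest 1604). Several libraries stood apart. P3 replicate 1 had the highest fibroblast sum of the 12 libraries (456 CPM against 91.7 to 301 CPM in the others), P3 replicates 4 and 5 had the highest pericyte sums of their age (1294 and 1426 CPM), and P9 replicate 2 had the highest lens sum of its age. P9 replicates 5 and 6 were the most alike pair of libraries (correlation of log2 CPM 0.974), and their labels carry crossed sample names, both P9.

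Most of the Wnt genes that changed were lower at P9. Of the 44 members, 40 passed the filter on low counts and were tested, of which 6 rose, 21 fell and 13 missed the threshold of 0.05 on the adjusted p (edgeR's quasi-likelihood test, Benjamini-Hochberg adjustment over 18638 genes). Over all tested genes, 26.1% rose and 25.6% fell, together 51.8%, while 15% of the tested members rose and 52.5% fell. The median log2 fold change, P9 over P3, was -0.35 over the tested members and -0.00176 over all tested genes. Changes of 2-fold or more were called upward in 2 members and downward in 12, against 10% and 8.01% of all tested genes. For 20 of 40 members the 6 values of P3 did not overlap with the 6 of P9, against 31.7% of all tested genes. Where the fit was restricted to genes averaging 10 CPM or more, 11.1% of the 18 members left rose and 61.1% fell, beside 31.7% and 33.1% of 10959 genes. In libraries of mixed RNA, fewer cells of a type and less RNA per cell cannot be told apart, which holds for every fall and rise below.

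**Figure D1:**
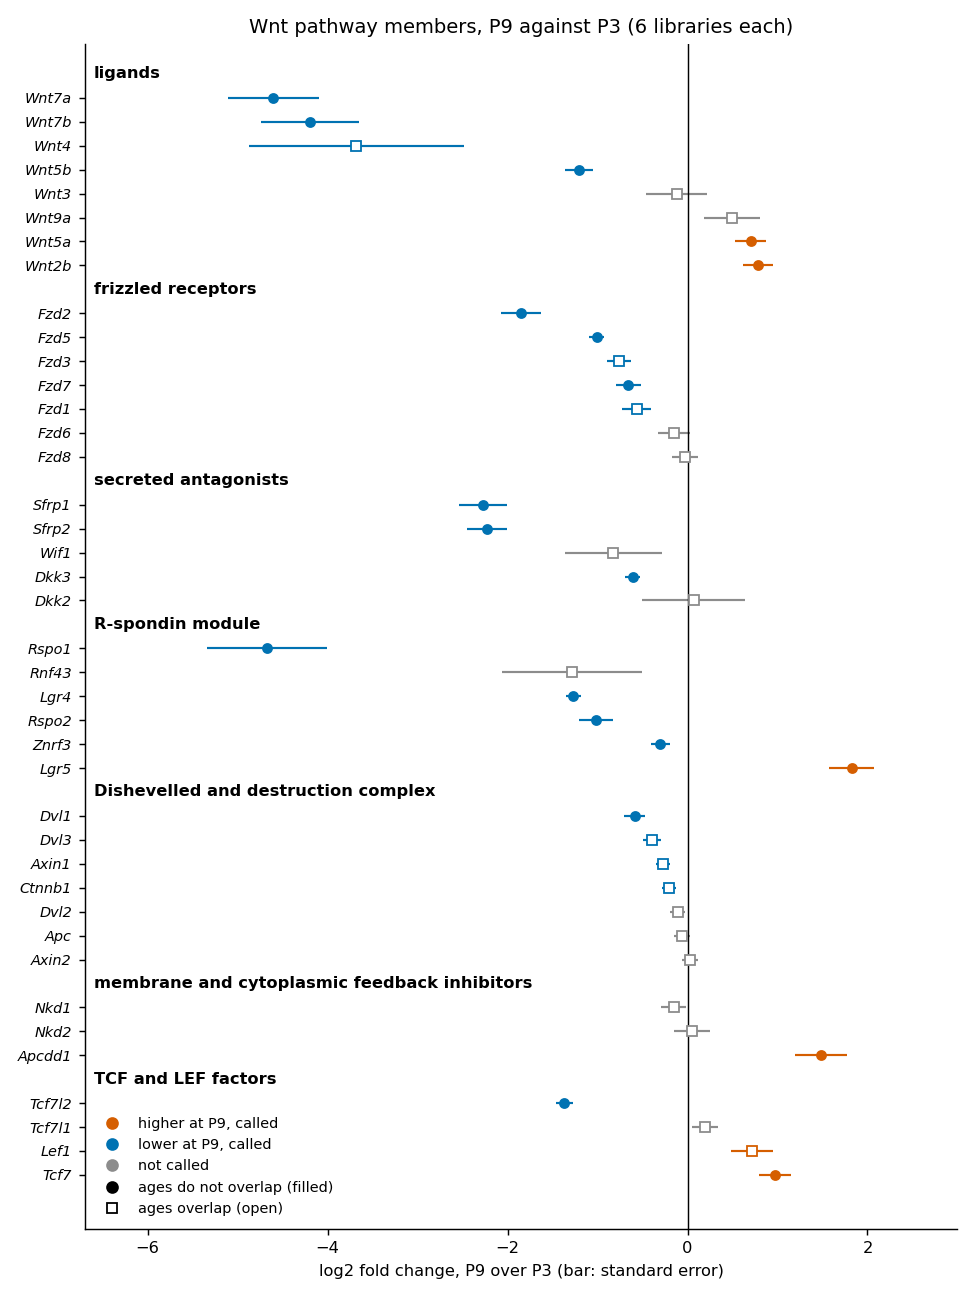
The log2 fold change of each of the 40 tested members (x axis, P9 over P3, bars are standard errors, 6 libraries per age), grouped by role. Filled circles are members whose ages do not overlap and open squares those that do; orange is called higher, blue called lower and grey not called. Wnt7a, Wnt7b and Rspo1 lie below -4 and Lgr5 and Apcdd1 above 1, while Axin2 and Nkd2 lie near 0.

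The sequence before the annotated start of transcription was set beside these levels because TCF and LEF factors read a short DNA word. RefSeq promoters on GRCm38.p6 were held for 29 of the 44 members, with 38 start sites. The 250 bases before each start were searched on both strands for 4 short words. These were CTTTGAA as the first word, CTTTGAT as the second word, CTTTGTA as the third word and CTTTGTT as the last word. The reverse complement of the last of these is also a core word of SOX factors. At least 1 match was found in 5 of the 38 member promoters (13.2%), against 14.8% of all 32851 promoters. The median GC content was 66.4% in member promoters and 52.4% in all. The members with a match were Fzd7, Wnt5b, Lef1, Tcf7l2 and the untested Dkk1. The 4 tested ones are shown, each with the match in capitals, followed by Axin2, a feedback gene without a match that did not pass the test. The match in Wnt5b, Lef1 and Tcf7l2 lies before a start other than the first listed, and the counts are per gene, so which start was used is not measured.
Fzd7 (chr1:59481897-59482146, plus strand): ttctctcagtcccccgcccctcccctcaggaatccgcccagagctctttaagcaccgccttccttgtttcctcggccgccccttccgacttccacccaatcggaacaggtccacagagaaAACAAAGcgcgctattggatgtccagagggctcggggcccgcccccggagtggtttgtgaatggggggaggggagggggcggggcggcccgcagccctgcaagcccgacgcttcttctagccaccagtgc
Wnt5b (chr6:119449387-119449636, minus strand): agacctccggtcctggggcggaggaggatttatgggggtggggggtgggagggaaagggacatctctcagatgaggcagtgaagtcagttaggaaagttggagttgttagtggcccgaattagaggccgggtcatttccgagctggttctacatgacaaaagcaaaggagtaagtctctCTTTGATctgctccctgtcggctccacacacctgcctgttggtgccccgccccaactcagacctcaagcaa
Lef1 (chr3:131156044-131156293, plus strand): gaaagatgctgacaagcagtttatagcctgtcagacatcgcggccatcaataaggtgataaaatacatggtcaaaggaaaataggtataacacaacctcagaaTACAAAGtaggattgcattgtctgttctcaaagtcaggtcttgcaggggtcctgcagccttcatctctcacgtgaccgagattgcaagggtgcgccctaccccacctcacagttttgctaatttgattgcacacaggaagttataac
Tcf7l2 (chr19:55895071-55895320, plus strand): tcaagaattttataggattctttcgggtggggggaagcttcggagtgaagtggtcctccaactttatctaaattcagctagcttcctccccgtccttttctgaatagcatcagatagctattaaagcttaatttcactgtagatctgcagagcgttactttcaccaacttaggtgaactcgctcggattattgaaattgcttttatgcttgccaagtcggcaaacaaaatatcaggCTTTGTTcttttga
Axin2 (chr11:108920099-108920348, plus strand): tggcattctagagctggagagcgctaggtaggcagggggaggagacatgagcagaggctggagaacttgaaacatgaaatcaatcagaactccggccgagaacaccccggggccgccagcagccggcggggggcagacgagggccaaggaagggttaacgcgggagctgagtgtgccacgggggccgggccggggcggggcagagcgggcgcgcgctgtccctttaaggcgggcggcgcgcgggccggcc
Of these 5 genes, Fzd7, Wnt5b and Tcf7l2 fell, Lef1 rose and Axin2 did not pass.

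Among the ligands, Wnt7a, Wnt7b, Wnt5b and Wnt4 fell, Wnt2b and Wnt5a rose, and Wnt3 and Wnt9a did not pass. Wnt7b (ENSMUSG00000022382.14, chromosome 15, 85535437 to 85581821, GRCm38.p6 as for all spans below), a ligand known for its role in vessel growth of the central nervous system and in regression of fetal eye vessels, had a median of 16.2 CPM (lowest 14, highest 23.2) at P3 and a median of 0.518 CPM (lowest 0.208, highest 3.29) at P9. Every P9 library lay below every P3 library, and P9 replicate 3 held the highest P9 value with 124 counts, against 7 to 26 counts in the other P9 libraries. Its log2 fold change was -4.19 ± 0.55 (SE; adjusted p = 1.66e-05), and -5.25 without P9 replicate 3. Wnt7a (ENSMUSG00000030093.7, chromosome 6, 91363981 to 91411353), its close relative, had a median of 3.46 CPM (lowest 1.85, highest 5.07) at P3 and a median of 0.151 CPM (lowest 0, highest 0.265) at P9, where it rested on 0 to 10 counts per library. The ages were apart by a wide gap, with a log2 fold change of -4.60 ± 0.51 (adjusted p = 3.37e-06).

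Wnt5a and Wnt5b, the Wnt5 ligands best known for signalling that does not use beta-catenin, moved in opposite directions. Wnt5b (ENSMUSG00000030170.14, chromosome 6, 119432531 to 119544824) had a median of 6.80 CPM (lowest 5.18, highest 8.55) at P3 and a median of 2.99 CPM (lowest 2.67, highest 3.17) at P9, a log2 fold change of -1.20 ± 0.16 (adjusted p = 1.63e-05). The P9 values lay close together and below all P3 values. Wnt5a went from a median of 5.45 CPM (lowest 3.82, highest 7.63) to a median of 8.67 CPM (lowest 7.95, highest 11), 1.63-fold higher (adjusted p = 0.00335), again without overlap. Wnt2b, a ligand of the retinal margin and pigment epithelium, rose from a median of 5.04 CPM (lowest 3.49, highest 5.73) to a median of 8.61 CPM (lowest 6.47, highest 10.5) (log2 fold change 0.79 ± 0.17; adjusted p = 0.00117). At P3 the summed pigment epithelium markers had a median of 57.8 CPM (lowest 33.1, highest 79.7). At P9 their median was 87.2 CPM (lowest 63.8, highest 124). The summed ciliary margin markers went from a median of 122 CPM (lowest 117, highest 136) to 76.7 CPM (lowest 70.0, highest 88.9). The part of either list in the rise of Wnt2b was not tested. Wnt9a, at a median of 1.10 CPM (lowest 0.602, highest 1.78) and a median of 1.75 CPM (lowest 1.19, highest 1.90), did not pass (adjusted p = 0.193).

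**Figure D2:**
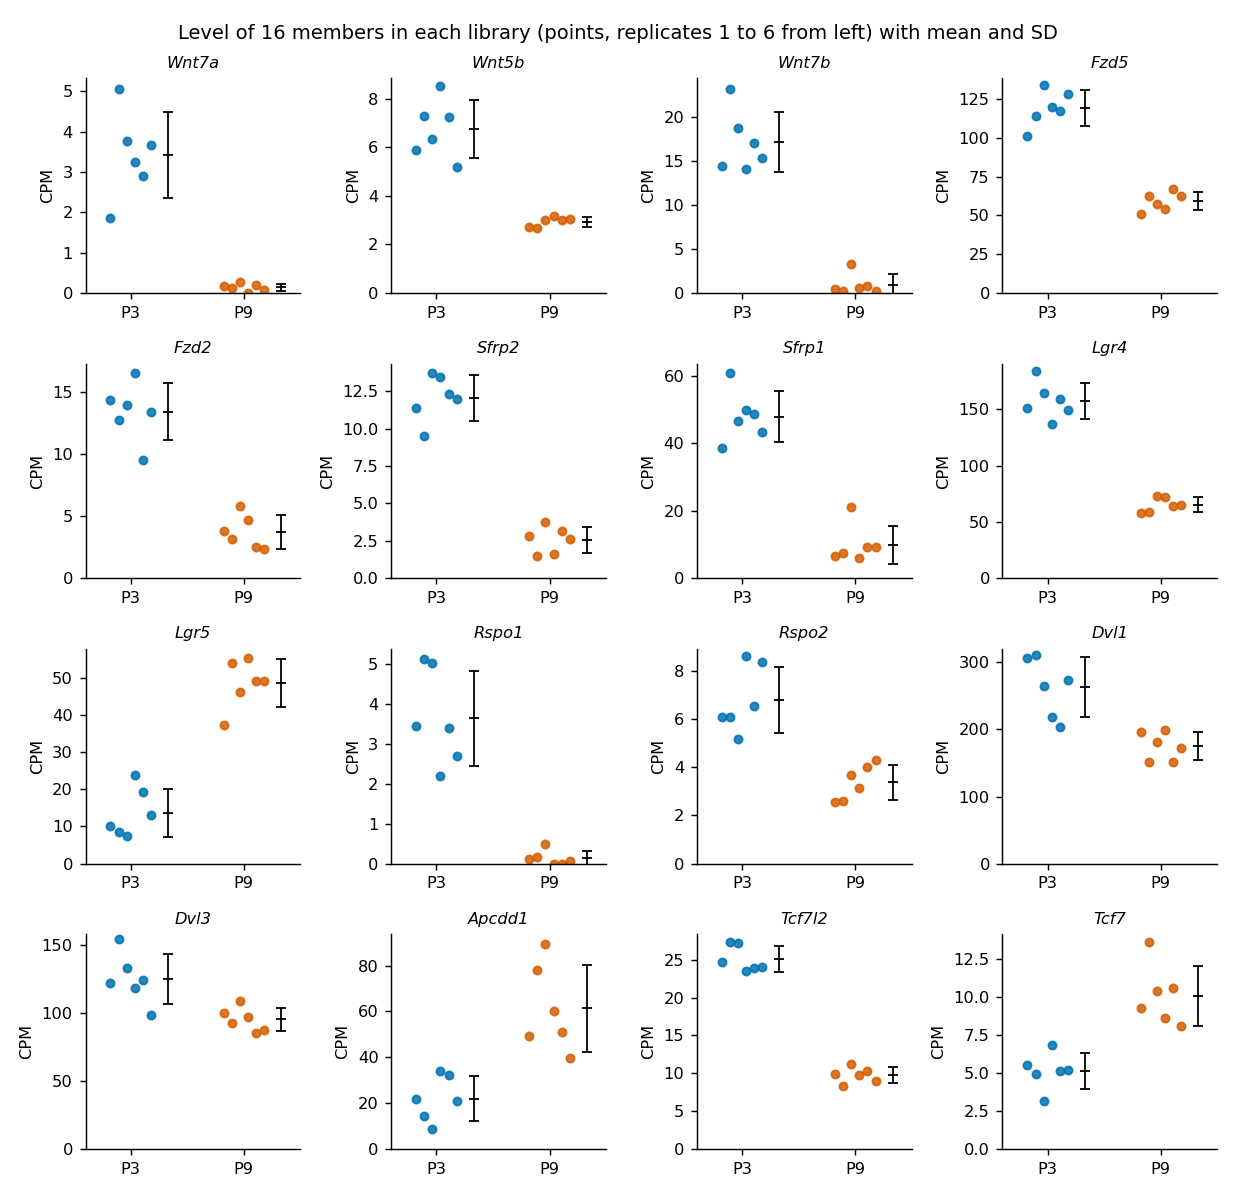
CPM (y axis, linear from 0) of 16 members in each P3 (blue) and P9 (orange) library, with the mean and SD over 6 libraries in black. The ages do not overlap in 15 of the 16 panels, and Dvl3 is the panel in which they do. Most panels were picked for being called, at least 2-fold changed and without overlap, so this count is not a result. Without such picking, 20 of 40 tested members did not overlap, against 31.7% of all tested genes.

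The ligands Wnt3, Wnt4 and Wnt6 and the antagonist Dkk1 were each highest in P3 replicate 1. Wnt4, a ligand of epithelia and connective tissue, stood at 22.9 CPM (693 counts) there, against 0.149 to 1.43 CPM in the other P3 libraries and a median of 0.252 CPM (lowest 0.0925, highest 0.663) at P9. The ages overlapped. Its fall (log2 fold change -3.68 ± 1.19; adjusted p = 0.0178) rested on that library: without it the log2 fold change was -0.641 (adjusted p = 0.475), and limma-voom gave -1.34 (adjusted p = 0.358). DESeq2 gave Wnt4 no adjusted p. Wnt3 stood at 6.21 CPM in P3 replicate 1 and at 1.60 to 2.47 CPM in the other P3 libraries, and had a median of 2.42 CPM (lowest 1.69, highest 4.14) at P9. It did not pass (adjusted p = 0.787). Wnt6, too low to be tested, had 54 counts in P3 replicate 1 and 0 to 6 in each of the other 11 libraries. Dkk1, which blocks the LRP co-receptors and was also too low to be tested, had 22 counts there and 0 to 6 elsewhere. In the same library 7 of the 9 fibroblast markers were at their highest of the 12 libraries. The other two were Pdgfra, at 65.7 CPM the second lowest, and Col3a1, at 112 CPM below P9 replicates 2 and 4. Col14a1 stood at 41.2 CPM against 0.743 to 1.86 CPM in the other 11, and Dcn at 21.8 CPM against 0.288 to 3.14 CPM; both were chosen after their values were seen. For P9 against P3, of the 8 tested fibroblast markers 1 rose, 1 fell and 6 did not pass. Their part in the Wnt values of this library was not tested.

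**Figure D3:**
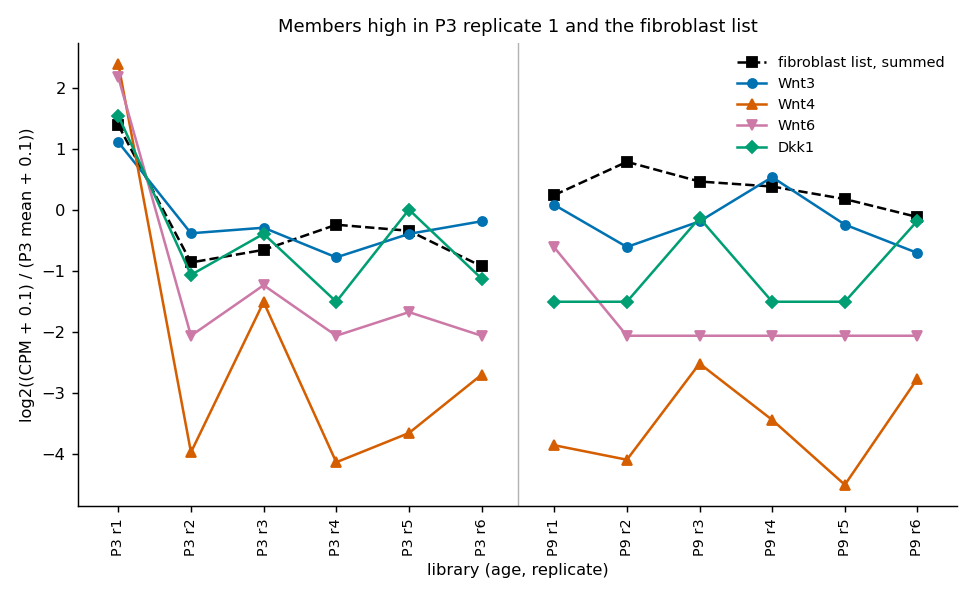
Level in each library (x axis) of Wnt3, Wnt4, Wnt6, Dkk1 and the summed fibroblast list, as log2 of CPM plus 0.1 over the P3 mean plus 0.1. Lines join libraries of an age for reading only, since replicates have no order. All 5 are highest in P3 replicate 1, where Wnt4 reached 22.9 CPM.

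Frizzled receptors fell or did not pass: 5 of 7 fell and none of the 7 rose, where 25.6% of all tested genes fell and 26.1% rose. Fzd2 (ENSMUSG00000050288.6, chromosome 11, 102604431 to 102608058) went from a median of 13.7 CPM (lowest 9.52, highest 16.6) at P3 to a median of 3.47 CPM (lowest 2.32, highest 5.86) at P9, a log2 fold change of -1.85 ± 0.22 (adjusted p = 7.78e-06). Fzd5 (ENSMUSG00000045005.9, chromosome 1, 64730558 to 64737750), a receptor that retinal progenitors and neurons use, went from a median of 119 CPM (lowest 101, highest 134) to a median of 60.1 CPM (lowest 51.2, highest 66.9), with a log2 fold change of -1.01 ± 0.085 (adjusted p = 3.04e-07). In both genes all P9 libraries lay below all P3 libraries, and the P3 spread of Fzd5 was narrow. Fzd7, whose promoter is shown above, fell from a median of 11 CPM (lowest 9.15, highest 12.3) to a median of 7.01 CPM (lowest 5.62, highest 8.65) (log2 fold change -0.66 ± 0.13; adjusted p = 0.000865), with no overlap. Fzd3, a receptor of axon guidance and planar polarity, fell from a median of 135 CPM (lowest 83.4, highest 146) to a median of 72.8 CPM (lowest 59.6, highest 91) (1.69-fold lower at P9), and Fzd1 from a median of 7.97 CPM (lowest 6.46, highest 10.4) to a median of 5.55 CPM (lowest 4.35, highest 6.86) (1.48-fold lower). The ages overlapped in both, and the call of Fzd1 was lost without P3 replicates 4 and 5 (adjusted p = 0.0761). Fzd6 and Fzd8 had log2 fold changes of -0.15 ± 0.18 and -0.03 ± 0.15 and did not pass. Fzd6 is uncertain, since 2 gene rows carry its symbol and hold equal counts in all 12 libraries, and only 1 was used. Beside these falls, 13 of 14 retinal progenitor markers fell, and their part in the receptor levels was not tested.

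Of the secreted antagonists, Sfrp1, Sfrp2 and Dkk3 fell, Dkk2 and Wif1 did not pass, and Sfrp5 and Dkk1 were not tested. Sfrp1 (ENSMUSG00000031548.7, chromosome 8, 23411383 to 23449632), a frizzled-related protein that binds Wnts outside the cell, went from a median of 47.5 CPM (lowest 38.5, highest 60.7) at P3 to a median of 8.34 CPM (lowest 5.86, highest 21.2) at P9. P9 replicate 3 was the high P9 library, while the other P9 values stood between 5.86 and 9.15 CPM, and no P9 value reached a P3 value. The log2 fold change was -2.27 ± 0.27 (adjusted p = 6.24e-06). Sfrp2 (ENSMUSG00000027996.13, chromosome 3, 83765750 to 83774314), a relative made by dividing retinal progenitors, went from a median of 12.2 CPM (lowest 9.49, highest 13.7) to a median of 2.72 CPM (lowest 1.45, highest 3.74), a log2 fold change of -2.23 ± 0.22 (adjusted p = 1.12e-06). Sfrp1 and Sfrp2 also stand on the progenitor list used here, so the fall of that list is in part their own. Dkk3, a divergent Dickkopf protein abundant in retina and also listed here as a Müller glia marker, went from a median of 400.4 CPM (lowest 332, highest 428) to a median of 256 CPM (lowest 224, highest 286), 1.53-fold lower (adjusted p = 2.10e-05). Of the other 8 genes of the Müller glia list, 6 rose and 2 did not pass.

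The antagonists that did not pass were low. Dkk2 had a median of 1.90 CPM (lowest 0.271, highest 2.28) at P3 and a median of 0.968 CPM (lowest 0.544, highest 5.33) at P9, with P3 replicate 3 the low and P9 replicate 3 the high library. Its log2 fold change of 0.07 ± 0.57 became -0.696 without P9 replicate 3 and did not pass there either (adjusted p = 0.255). Wif1, which binds Wnts directly, stood at a median of 0.768 CPM (lowest 0.400, highest 1.12) and a median of 0.467 CPM (lowest 0.0519, highest 0.832) (adjusted p = 0.218). Sfrp5 had 0 to 11 counts at P3 and 7 to 39 at P9. It was tested in 10 of the alternative settings, which left libraries out or kept low genes, with log2 fold changes of 1.55 to 2.32 and adjusted p between 0.0217 and 0.0804.

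In the R-spondin module the receptors Lgr4 and Lgr5 went opposite ways. Lgr4 (ENSMUSG00000050199.13, chromosome 2, 109917647 to 110014257), the broadly expressed receptor, went from a median of 155 CPM (lowest 137, highest 184) at P3 to a median of 64.9 CPM (lowest 58.1, highest 73) at P9, a log2 fold change of -1.27 ± 0.086 (adjusted p = 5.11e-08). Lgr5 (ENSMUSG00000020140.15, chromosome 10, 115450314 to 115587780), a Wnt target known as a stem cell marker and also found in amacrine cells of the retina, went from a median of 11.7 CPM (lowest 7.33, highest 23.8) to a median of 49.3 CPM (lowest 37.3, highest 55.4), a log2 fold change of 1.82 ± 0.25 (adjusted p = 2.46e-05). In both genes the ages did not overlap. Among P3 libraries Lgr5 was highest in replicates 4 and 5 (23.8 and 19.3 CPM), the pair with the highest pericyte sums, and lowest in replicate 3 (7.33 CPM), which had the lowest pericyte sum (423 CPM). At P9 Lgr5 was highest in replicates 4 and 2 (55.4 and 54.1 CPM) and lowest in replicate 1 (37.3 CPM). The pericyte sum at P9 was highest in replicate 2 (6509 CPM) and lowest in replicate 6 (2912 CPM). The rod sum had the same extremes as Lgr5 at P3 (2978 and 2749 CPM in replicates 4 and 5, 1339 CPM in replicate 3). At P9 the rod sum was highest in replicate 6 (16418 CPM) and lowest in replicate 3 (7975 CPM). Over all called genes, P3 replicates 4 and 5 were the P3 library nearest to P9 in 31.9% and 28.5%. Amacrine markers summed to a median of 812 CPM (lowest 759.6, highest 927) at P3 and a median of 686 CPM (lowest 631, highest 785) at P9, with the ages overlapping. Of these 9 markers, 3 rose, 3 fell and 3 did not pass, and their median log2 fold change was 0.32. The part of pericytes, rods or amacrine cells in the rise of Lgr5 was not tested.

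The ligands of these receptors fell. Rspo1 (ENSMUSG00000028871.7, chromosome 4, 124986401 to 125009102) went from a median of 3.41 CPM (lowest 2.20, highest 5.10) at P3 to a median of 0.0878 CPM (lowest 0, highest 0.477) at P9, where 2 libraries had no count and the highest, P9 replicate 3, had 18. Its log2 fold change was -4.67 ± 0.67 (adjusted p = 4.03e-05), and -5.65 without P9 replicate 3. Rspo2 (ENSMUSG00000051920.6, chromosome 15, 43020788 to 43171594) went from a median of 6.33 CPM (lowest 5.19, highest 8.61) to a median of 3.41 CPM (lowest 2.56, highest 4.29), a log2 fold change of -1.01 ± 0.19 (adjusted p = 0.000384), with no overlap. Rspo3, known for a role in endothelial cells, was too low to be tested, with 0 to 16 counts at P3 and 0 to 2 at P9. With no low-count filter it was called lower (log2 fold change -4.09; adjusted p = 0.0369). Of the ubiquitin ligases, Znrf3 went from a median of 19.9 CPM (lowest 18.4, highest 26.5) to a median of 17.7 CPM (lowest 14.4, highest 18.1), 1.24-fold lower (adjusted p = 0.0245), with no overlap, and its call did not survive leaving out P3 replicate 5 (adjusted p = 0.0591), P9 replicate 1 (0.0505) or P9 replicate 5 (0.0585). Rnf43 stayed at or below 1.02 CPM and did not pass (adjusted p = 0.186).

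The falls of Wnt7a, Wnt7b and Rspo1 stood beside a fall of the lens list. All 15 lens genes fell. Their mean sum was 20.9-fold lower at P9, and 77.7-fold lower without P9 replicate 2, which carried most of the P9 sum. In the fit Wnt7a, Wnt7b and Rspo1 were 24.3-fold, 18.3-fold and 25.5-fold lower. Mean CPM of Wnt7b and Rspo1 was 37.9-fold and 54.8-fold lower without P9 replicate 3, so the sizes of these falls rest on single libraries. At P3 the lens sum was lowest in replicate 1 (5537 CPM) and highest in replicate 2 (16662 CPM), and so was Wnt7a (1.85 and 5.07 CPM). Wnt7b and Rspo1 were highest in replicate 2 as well (23.2 and 5.10 CPM) but lowest in replicate 4 (14.0 and 2.20 CPM). The progenitor sum at P3 was highest in replicates 3 and 2 (3278 and 3142 CPM) and lowest in replicate 4 (2388 CPM). At P9 the order of the lens sum and Wnt7b was another one. P9 replicate 2 had the highest lens sum (2407 CPM) and the lowest Wnt7b (0.208 CPM). P9 replicate 3, which had the highest Wnt7a, Wnt7b, Rspo1 and Sfrp1 of its age, had a lens sum of 271 CPM and the highest progenitor and ciliary margin sums of its age (1604 and 88.9 CPM). The part of lens or progenitor RNA in these falls was not tested.

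**Figure D4:**
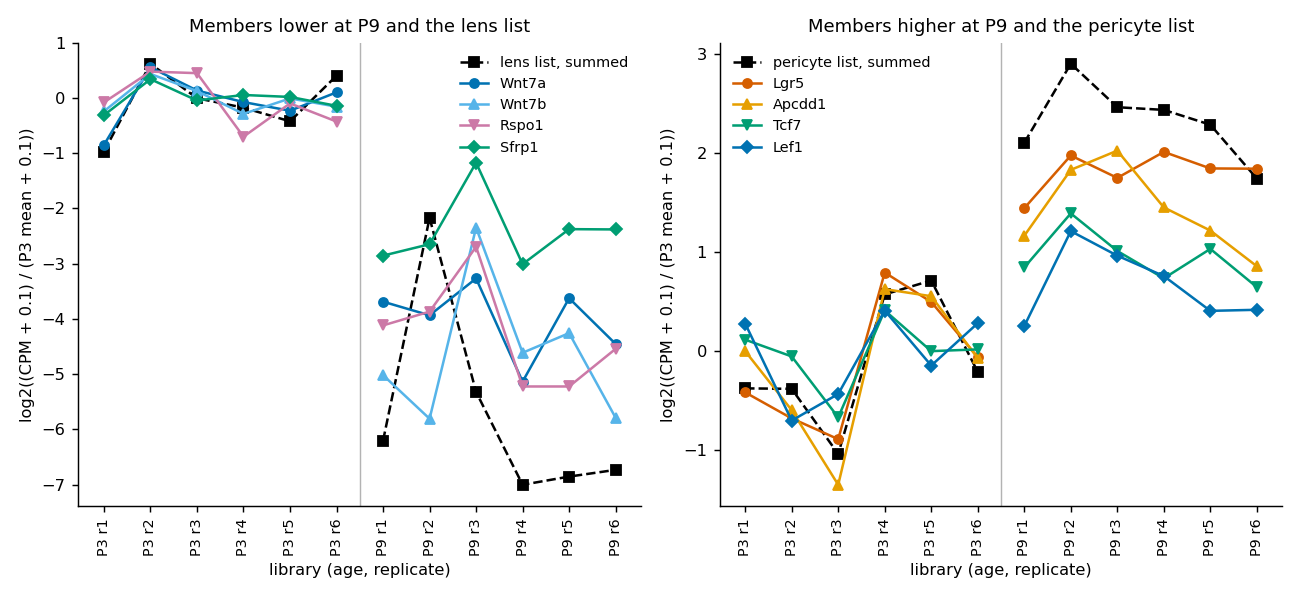
Level in each library (x axis) as log2 of CPM plus 0.1 over the P3 mean plus 0.1, for Wnt7a, Wnt7b, Rspo1 and Sfrp1 with the summed lens list (left) and Lgr5, Apcdd1, Tcf7 and Lef1 with the summed pericyte list (right). Lines join libraries of an age for reading only. At P9 the lens list peaks in replicate 2 and Wnt7b in replicate 3.

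Dishevelled genes and the destruction complex moved little. Of these 7 genes 4 fell, none rose and 3 did not pass, where 25.6% of all tested genes fell and 26.1% rose. The called share, 57.1%, was near the 51.8% of all tested genes. None of the changes reached 2-fold, and 18% of all tested genes were called at 2-fold or more. Dvl1 (ENSMUSG00000029071.16, chromosome 4, 155847402 to 155859303) went from a median of 269 CPM (lowest 204, highest 312) at P3 to a median of 177 CPM (lowest 151, highest 199) at P9, a log2 fold change of -0.59 ± 0.12 (adjusted p = 0.000623), with the ages just apart. Dvl3 (ENSMUSG00000003233.11, chromosome 16, 20516949 to 20534013) went from a median of 123 CPM (lowest 98.6, highest 155) to a median of 94.9 CPM (lowest 85.7, highest 109) (log2 fold change -0.39 ± 0.098; adjusted p = 0.0035), and the ages overlapped. Dvl2, the third Dishevelled gene, had a log2 fold change of -0.11 ± 0.083 and did not pass. Ctnnb1, which encodes beta-catenin, went from a median of 651 CPM (lowest 559, highest 672) to a median of 538 CPM (lowest 501, highest 603), 1.15-fold lower (adjusted p = 0.0299). The ages overlapped, and the call did not survive leaving out P3 replicate 4, 5 or 6, nor P9 replicate 1, 2, 4 or 6 (adjusted p, in that order, 0.0677, 0.0547, 0.0582, 0.071, 0.0623, 0.0636 and 0.0556). Axin1, the constitutive scaffold, was 1.21-fold lower (adjusted p = 0.00769), and this call was lost without P9 replicates 5 and 6 (adjusted p = 0.0627). Apc, the other scaffold, stood at a median of 617 CPM (lowest 571, highest 730.0) and a median of 609.5 CPM (lowest 525, highest 691) and did not pass (adjusted p = 0.577).

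Of the feedback genes, Apcdd1 rose, while Axin2, Nkd1 and Nkd2 did not pass. Axin2, the scaffold induced by beta-catenin and often read as a reporter of the pathway, stood at a median of 27.6 CPM (lowest 25.8, highest 32.6) at P3 and a median of 27.8 CPM (lowest 25.5, highest 34) at P9. Its ages overlapped almost fully, with a log2 fold change of 0.03 ± 0.089 (adjusted p = 0.787) that changed sign in 3 of 24 alternatives. Nkd1, which binds Dishevelled, stood at a median of 29.5 CPM (lowest 23.7, highest 35.3) and a median of 24.8 CPM (lowest 21.7, highest 38.4) and did not pass (adjusted p = 0.376), nor did Nkd2, at a median of 9.32 CPM (lowest 4.81, highest 10.8) and a median of 8.15 CPM (lowest 7.25, highest 13.1) (adjusted p = 0.861). Apcdd1 (ENSMUSG00000071847.12, chromosome 18, 62922327 to 62953815), a membrane inhibitor that binds Wnts and LRP proteins and is also made by endothelial cells of the retina, went from a median of 21.4 CPM (lowest 8.53, highest 33.9) to a median of 55.6 CPM (lowest 39.8, highest 89.5), a log2 fold change of 1.48 ± 0.29 (adjusted p = 0.000579). Among P3 libraries Apcdd1, like Lgr5, was highest in replicates 4 and 5 and lowest in replicate 3 (8.53 CPM). The rod sum had the same extremes at P3 (2978 and 2749 CPM in replicates 4 and 5, 1339 CPM in replicate 3). At P9 Apcdd1 was highest in replicates 3 and 2 (89.5 and 78.2 CPM) and lowest in replicate 6 (39.8 CPM). The pericyte sum at P9 was highest in replicates 2 and 3 (6509 and 4800 CPM) and lowest in replicate 6 (2912 CPM). The rod sum at P9 was lowest in replicate 3 (7975 CPM) and highest in replicate 6 (16418 CPM). The part of these cell types in the rise of Apcdd1 was not tested. The summed endothelial list had a median of 1014 CPM (lowest 884, highest 1034) at P3 and a median of 729 CPM (lowest 692, highest 790.0) at P9. Kdr, the VEGF receptor and the 1 gene of the 12 that fell, carried that sum, while 6 rose. Without Kdr the list summed to a mean of 55.8 CPM at P3 and 132 CPM at P9. On the list of 10 feedback targets, 9 were tested, of which 4 rose (Lgr5, Apcdd1, Tcf7 and Lef1), 2 fell (Notum and Znrf3) and 3 did not pass (Axin2, Nkd1 and Rnf43). Its median log2 fold change was 0.032, beside 51.8% of all genes called and a median near 0.

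Of the TCF and LEF factors, Tcf7l2 fell, Tcf7 and Lef1 rose and Tcf7l1 did not pass. Tcf7l2 (ENSMUSG00000024985.18, chromosome 19, 55741797 to 55933659), whose alternative promoter is shown above, went from a median of 24.4 CPM (lowest 23.5, highest 27.4) at P3 to a median of 9.83 CPM (lowest 8.26, highest 11.3) at P9, a log2 fold change of -1.37 ± 0.095 (adjusted p = 6.14e-08). The values of each age lay close together and the ages were far apart. Tcf7 (ENSMUSG00000000782.15, chromosome 11, 52246527 to 52283383), a factor that is itself a pathway target, went from a median of 5.15 CPM (lowest 3.18, highest 6.83) to a median of 9.84 CPM (lowest 8.06, highest 13.6), a log2 fold change of 0.97 ± 0.18 (adjusted p = 0.000374), with no overlap. Lef1, known in endothelial cells as a target and effector of beta-catenin, rose from a median of 4.31 CPM (lowest 2.46, highest 5.44) to a median of 6.21 CPM (lowest 4.87, highest 9.56) (log2 fold change 0.72 ± 0.23; adjusted p = 0.0171), with the ages overlapping. Tcf7l1, mostly a repressor, stood at a median of 10.5 CPM (lowest 6.62, highest 13.2) and a median of 11.5 CPM (lowest 11.1, highest 13.6) (adjusted p = 0.288).

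Ratios of related genes within a library do not depend on how libraries are scaled. Of 18 pairs, 14 had both members tested and no library at 0, and in 6 the ages did not overlap. Among single tested genes 31.7% did not overlap. No share was computed for ratios of other genes, so the count is not read as a trait of these pairs. The ratios are given without a test. The log2 ratio of Lgr5 to Lgr4 went from -3.65 ± 0.78 at P3 to -0.43 ± 0.20 at P9 (SD, n = 6), that of Wnt5a to Wnt5b from -0.31 ± 0.40 to 1.62 ± 0.20 and that of Tcf7l1 to Tcf7l2 from -1.31 ± 0.36 to 0.28 ± 0.24. In these 3 pairs every P9 library had a higher ratio than every P3 library. Smaller shifts without overlap were those of Axin2 to Axin1 (-0.99 ± 0.16 to -0.68 ± 0.094), Dvl1 to Dvl2 (1.53 ± 0.16 to 1.06 ± 0.13) and Fzd5 to Fzd8 (4.27 ± 0.28 to 3.29 ± 0.24). The ratio of Sfrp1 to Sfrp2 overlapped (1.99 ± 0.35 and 1.88 ± 0.49), as did that of Lef1 to Tcf7 (-0.35 ± 0.35 and -0.61 ± 0.28). These are ratios of counts, which also hold gene length, so their level does not say which of 2 genes had more transcripts.

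**Figure D5:**
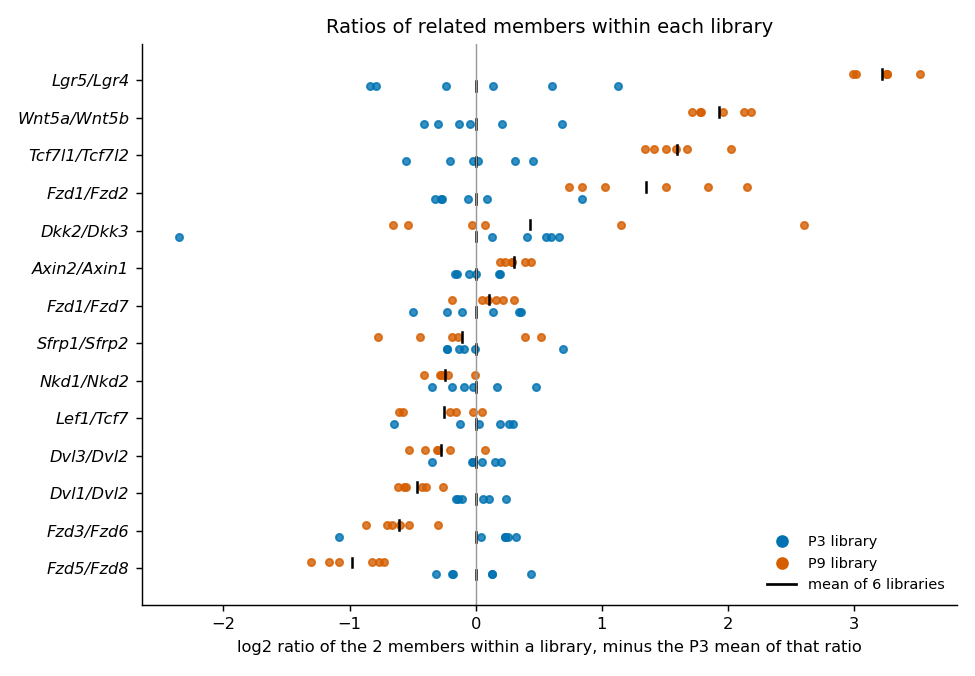
Log2 ratio of 2 related members within each library (x axis), minus the P3 mean of that ratio, for 14 pairs, with P3 libraries in blue, P9 libraries in orange and black ticks at the means of 6. The P9 libraries of Lgr5/Lgr4, Wnt5a/Wnt5b and Tcf7l1/Tcf7l2 all lie to the right of the P3 libraries, and those of Fzd5/Fzd8 to the left.

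Of 69 other Wnt pathway genes, 57 were tested, of which 15 rose (26.3%), 23 fell (40.4%) and 19 did not pass, with a median log2 fold change of -0.19. The 3 called upward with the smallest adjusted p were Prickle2, a planar polarity protein, Frzb, a secreted frizzled-related antagonist, and Csnk1g1, a casein kinase. Frzb had a median of 0.294 CPM (lowest 0.0602, highest 0.958) at P3 and a median of 11.2 CPM (lowest 7.13, highest 13.2) at P9 (log2 fold change 4.97 ± 0.46; adjusted p = 6.60e-07), and 5.61 without P3 replicate 1. Its rise was opposite to the falls of Sfrp1 and Sfrp2, whose domain it shares. Prickle2 was 3.13-fold and Csnk1g1 1.63-fold higher. Downward they were Ccnd1, cyclin D1 (11.4-fold lower), the co-repressor Tle3 (2.22-fold lower) and the planar polarity gene Vangl2 (2.14-fold lower). Ccnd1 is also on the progenitor list. In the planar polarity list 5 of 10 genes fell and 3 rose, and all 5 tested secreted antagonists that are not members were called, 2 upward and 3 downward, where 51.8% of all tested genes were called, 26.1% upward and 25.6% downward. Wls, which carries Wnts to the cell surface and was chosen after its values were seen, rose from a median of 11.9 CPM (lowest 11.3, highest 18.1) to a median of 34.1 CPM (lowest 21.9, highest 48.2) (adjusted p = 1.12e-05), while Porcn, the enzyme that acylates them, did not pass (adjusted p = 0.359).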

How the data were processed

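Ribosome-bound RNA from 12 retinal libraries was analysed. The authors deposited RSEM expected counts per gene, not scaled to depth; 15.9% of the values were not whole. Per the submitters' processing notes, the tools were STAR, RSEM, limma, FastQC and Trim Galore, and the build mm10. No source used here gives their roles, versions or annotation. The labelled age set the groups; replicate numbers follow accession order. Gene spans and promoters are those of RefSeq on GRCm38.p6, matched by symbol (spans for 44 members, promoters for 29). Of 2 rows named Fzd6, equal in all 12 libraries, the first was used.

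Expected counts were rounded, filtered by filterByExpr (18638 tested, 34452 removed), and scaled by TMM. The main test was edgeR's quasi-likelihood F test (edgeR 4.0.16, R 4.3.3); p-values were adjusted by Benjamini-Hochberg across the 18638 genes and called under 0.05. The standard error is the log2 fold change divided by the square root of F. Alternatives were other factors, filters and thresholds, DESeq2 1.42.0, limma-voom (limma 3.58.1), a robust fit, each library left out and pairs left out; leaving out P3 replicate 1 with P9 replicate 3, and the sums and means without 1 library or 1 gene, were chosen after seeing the data. The procedure was tested on simulated data: with 18254 genes for P9 against P3, edgeR found 56% of 2-fold and 86% of 4-fold changes, with 6% false calls. False calls were 5.63% with limma-voom and 20.2% with DESeq2. Far fewer genes were changed in the simulation than the 51.8% called in the data, so these rates may not hold for the data.

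The members, lists, pairs and rules were chosen with earlier results of these data known. Values per age were given for members of each role that were called, at least 2-fold changed and not overlapping, or else the called ones of smallest adjusted p up to 2, and of the other pathway genes for the 3 of smallest adjusted p in each direction. The result of 1 marker gene is not reported here.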

Additional observations from a re-analysis of the deposited data

Results flagged for a closer look

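Among the 80 sets of 6 values (40 tested members at 2 ages), 8 held a library whose gap to the nearest of the others was past Dixon's critical share of the whole range, on the scale of log2(CPM + 1); chance marks about 1 set in 20. In P3 replicate 1, Wnt4 stood at 22.9 CPM (others 0.149 to 1.43), Wnt3 at 6.21 CPM (others 1.6 to 2.47) and Dkk3, low, at 332 CPM (others 392 to 428). In P9 replicate 3, Sfrp1 stood at 21.2 CPM (others 5.86 to 9.15), Wnt7b at 3.29 CPM (others 0.208 to 0.801) and Rspo1 at 0.477 CPM (others 0 to 0.156). Dkk2 was low in P3 replicate 3 at 0.271 CPM (others 1.57 to 2.28), and Tcf7l1 was high in P9 replicate 2 at 13.6 CPM (others 11.1 to 11.8).

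Over the 27 called members, the P9 library nearest to P3 was replicate 3 in 11 (40.7%, against 34.2% of all called genes). It was P9 replicate 4 in 3 (11.1%, against 23.7%). The P3 library nearest to P9 was replicate 4 in 9 (33.3%, against 31.9%) and replicate 1 in 8 (29.6%, against 12.5%). It was P3 replicate 5 in 3 (11.1%, against 28.5%).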

How the results depend on the processing

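Of 935 values of the 40 tested members under 24 alternatives, 894 kept their direction and their side of the threshold, 24 lost a call, none gained one and 17 changed sign, all of the last in members that were not called. The lost calls were those of Wnt4, Fzd1, Znrf3, Ctnnb1, Axin1 and Lef1, the last only at an adjusted p under 0.01. DESeq2 gave Wnt4 no adjusted p, so that value is not among the 935. With DESeq2 20 members fell, against 21 in the main fit. Sign changes were Dkk2 at -0.186 with limma-voom; Fzd8 at 0.0272 and Axin2 at -0.0126 without P3 replicates 4 and 5; Wnt3 at 0.0247 without P9 replicates 5 and 6; and, without P3 replicate 1 and P9 replicate 3, Wnt3 at 0.292, Fzd6 at 0.00624, Dkk2 at -0.664, Axin2 at -0.0135 and Nkd2 at -0.098. With each library left out in turn, Wnt3 ran from -0.305 to 0.279, Dkk2 from -0.696 to 0.254, Nkd2 from -0.0897 to 0.12, Fzd8 from -0.0849 to 0.037 and Axin2 from -0.02 to 0.0751. The cause was not tested.

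The counts of members ran from 6 to 7 rising and 19 to 21 falling with each library left out, and from 1 to 2 falling feedback targets. A mean of at least 10 CPM, which left 18 members, gave 2 rising and 11 falling, with 9 rising other pathway genes and, among 5 tested feedback targets, 2 rising and 1 falling. The falling feedback targets were 1 with no low-count filter, at an adjusted p under 0.01, without P3 replicates 4 and 5 and without P9 replicates 5 and 6. Members below about 1 CPM rest on few counts, which limits Wnt4, Wif1, Rnf43, the 4 untested members and, at P9, the sizes of the falls of Wnt7a, Wnt7b and Rspo1. No paired analysis was possible because replicate numbers came from accession order alone.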
